A study of Mus musculus with 4 samples.

Results

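The genes described here build and maintain the primary cilium. They were taken by symbol from the protein-coding genes of GENCODE release M21: every Ift, Bbs, Tctn, Nphp and B9d gene whose symbol goes on with a number, the transmembrane genes Tmem67, Tmem107, Tmem216, Tmem231 and Tmem237, and Mks1, Cc2d2a and Cep290. This rule gave 37 of 21829 protein-coding genes. The rule uses symbols and no measured value. Each was followed through Foxr2 CUT&RUN peaks that lie within 1 kb of a protein-coding transcript start, here called promoter peaks.

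CUT&RUN cuts free the DNA around an antibody-bound protein, and the antibody was directed against the V5 tag carried by the Foxr2 vector. The Foxr2 p53LOF group held 2 replicates of a C57BL/6J neurosphere line grown from tumours made by in utero electroporation (IUE), in which a C-terminally tagged Foxr2 was driven by the CAG promoter and Trp53 was cut with CRISPR/Cas9. The V5 control group held 2 replicates of a C57BL/6J line from a separate IUE model without the tag, for which the labels give the genotype H3.3G34R, so the tag, the driver and the line differ together between the groups. Nothing in the labels places the replicates in separate animals or tumours, so their spread may be technical. With 2 libraries against 2 the smallest two-sided exact permutation p is 0.333, and the comparisons below are therefore given as values without a test.

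The cilium is a microtubule-based antenna of the cell surface, through which vertebrate cells, including neural progenitors, receive Hedgehog signals. Intraflagellar transport (IFT) trains carry building material along it: IFT-B with kinesin towards the tip and IFT-A with dynein back to the base, while the BBSome moves membrane proteins out of the cilium. At the base the transition zone, made of the tectonic, B9 and nephrocystin protein groups, decides which proteins enter, and mutations in its genes cause Meckel, Joubert and nephronophthisis syndromes. Many cilium genes are known targets of the RFX transcription factors, which read a sequence called the X-box.

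Because the X-box is the best known element of these promoters, it is shown first, searched in the window from 250 bases before to 50 after the principal transcript start. The consensus is a pair of inverted half-sites with a spacer of 0 to 3 bases, read on both strands. It was found in 7 of the 37 promoters (18.9%) and in 1.42% of all 21829 promoters. The copies are printed below with up to 8 bases on either side, read on the strand of the gene from the RefSeq GRCm38.p6 genome, with the X-box in capitals.
B9d2, chr7:25680788-25680817, + strand: aacctgctGTTGCCCCAGCAACagtcgggg
Bbs1, chr19:4906605-4906634, - strand: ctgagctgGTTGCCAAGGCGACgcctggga
Ift57, chr16:49699199-49699228, + strand: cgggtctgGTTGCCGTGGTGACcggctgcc
Ift57, chr16:49699226-49699254, + strand: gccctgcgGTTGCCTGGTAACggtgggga
Tctn1, chr5:122264411-122264432, - strand: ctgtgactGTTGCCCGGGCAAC
Tctn3, chr19:40612351-40612379, - strand: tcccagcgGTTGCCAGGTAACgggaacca
Tmem237, chr1:59120102-59120131, - strand: tagtcagcGTTGCCATGGCGACgcctccgg
Tmem67, chr4:12088062-12088090, - strand: cgtgcgtgGTAACCTAGCAACcaggcgtc
Counted to their first base with the start as position 1, the pair of X-boxes of Ift57, an outer IFT-B subunit, began at −26 and at 2. The others began between −138 (Tctn3) and 37 (Tctn1).

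A second set of sequences shows the 200 bases before the start of a gene with an ETS motif, of a gene with an X-box, and the stretch between 2 starts that face away from each other. ETS motifs (CCGGAAG, either strand) and X-boxes are in capitals, and a sequence without capitals holds neither. Ift88 encodes an IFT-B core subunit, Tmem237 a transition zone membrane protein and Ift122 an IFT-A core subunit. They are printed because their promoters carried some of the highest folds of the 37.
Ift88, chr14:57423862-57424061, + strand: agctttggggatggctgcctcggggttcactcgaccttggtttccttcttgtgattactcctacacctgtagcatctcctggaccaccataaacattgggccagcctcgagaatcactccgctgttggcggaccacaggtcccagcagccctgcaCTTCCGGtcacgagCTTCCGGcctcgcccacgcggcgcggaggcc
Tmem237, chr1:59120095-59120294, - strand: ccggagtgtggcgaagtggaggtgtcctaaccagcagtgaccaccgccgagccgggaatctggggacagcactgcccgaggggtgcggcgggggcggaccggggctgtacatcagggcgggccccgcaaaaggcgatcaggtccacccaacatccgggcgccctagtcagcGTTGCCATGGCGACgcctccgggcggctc
Ift122 to Mbd4, chr6:115853372-115853469, + strand: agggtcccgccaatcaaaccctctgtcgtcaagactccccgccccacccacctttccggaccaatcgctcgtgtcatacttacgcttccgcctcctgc
Mbd4 encodes a DNA glycosylase and is read from the opposite strand.

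All 37 genes had a promoter peak in Foxr2 p53LOF replicate 1, where 53.4% of all protein-coding genes had one. All 37 also had one in replicate 2, against 54.4% of all genes. Both replicates had a promoter peak at 37 of 37 cilium genes and at 51.5% of all genes. In the V5 control lists 0 of 37 had a promoter peak, and 29 genes in all (0.133%) had one in either control replicate. The control lists are short, with 308 and 124 peaks against 31909 and 38580 in the Foxr2 p53LOF replicates. A list holds peaks above its own minimum fold only (4.08 and 4.87 in the controls), so a gene without a peak has no measured value there.

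After the filter of the study, 27 of the 37 genes (73%) kept a reproducible promoter site, against 39.3% of all genes. The filter drops peaks that overlap a control peak by at least 10 bp, have a fold of 6 or less or a −log10 q of 6 or less, or reach 10000 bp, and where the peaks that remained in the 2 replicates overlapped, their common stretch is called a reproducible site. At a minimum fold of 10 the count was 13 of 37 (35.1%), against 19.8% of all genes. These included Ift20, Ift27, Ift80, Ift88, Ift122, Ift140, B9d1, B9d2, Bbs12, Nphp4, Tmem107 and Tmem237.

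Foxr2 peaks were more common at promoters richer in CpG dinucleotides, and the cilium genes were compared with all genes of like CpG content. CpG observed over expected was counted in the 1000 bases on either side of the principal start. Its median was 0.559 over the 37 genes (0.260 to 0.864) and 0.483 over all genes, while the median GC content was 49.5% and 51.4%. Among genes with a ratio of at least 0.6, a promoter peak in both replicates was seen at 13 of 13 cilium genes and 88.3% of all 7605 genes, and a reproducible site at 11 of 13 and 72%. Most cilium genes (23) lay between 0.4 and 0.6, where 23 of 23 had a peak in both replicates against 67.9% of all genes, and 15 of 23 had a site against 48.8%. The lowest ratio belonged to Cc2d2a, whose principal start lies at chr5:43662346 and whose peaks, from 43672314 to 43673003 in replicate 1 and from 43672045 to 43673011 in replicate 2, lie at another start inside the gene. The part of CpG content in the counts above was not tested.

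**Figure D1:**
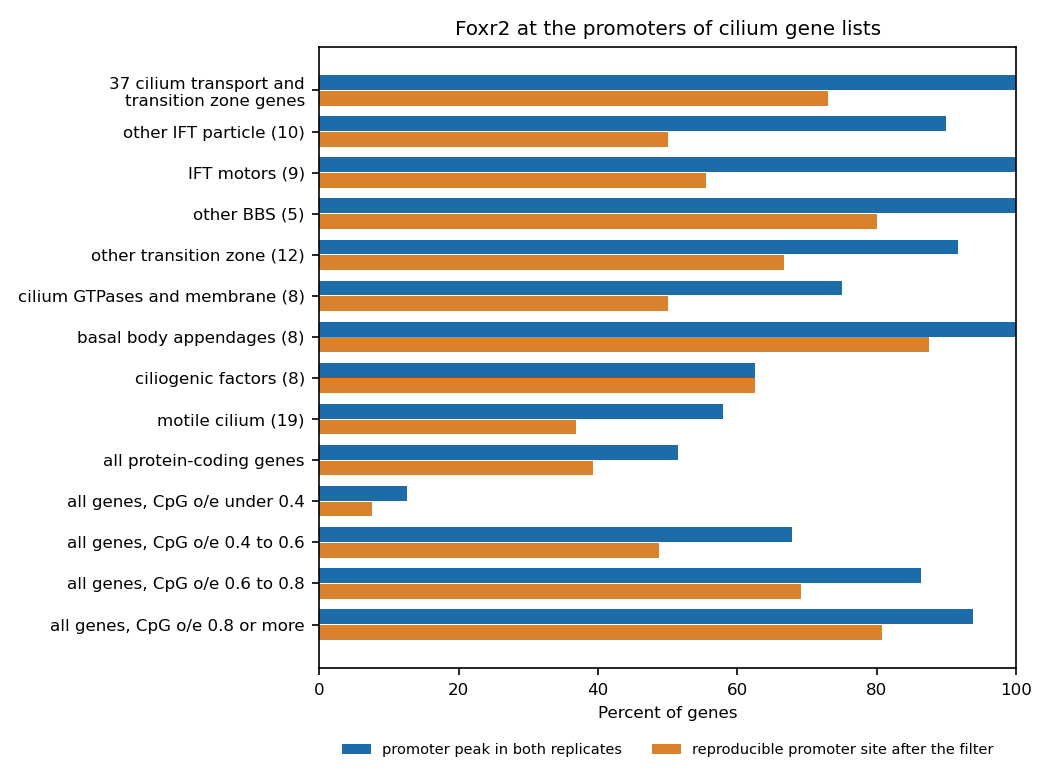
Percent of genes with a promoter peak in both Foxr2 p53LOF replicates (blue) and with a reproducible promoter site after the filter (orange), for the 37 cilium genes, 8 lists of other cilium genes with the number of genes in each, all protein-coding genes, and all genes in 4 ranges of CpG observed over expected (o/e). The 37 genes reach 100% and 73%, all genes 51.5% and 39.3%, and genes with a CpG ratio from 0.6 to 0.8 reach 86.4% and 69.1%.

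The height of the peaks was ordinary for promoters. A fold here is the deposited enrichment of a summit over the background of its own library. Over the 37 genes it ran from 3.53 to 25.2 in replicate 1, with a median of 7.95, and from 3.94 to 37.5 in replicate 2, with a median of 9.86. Over all genes with a promoter peak the medians were 8.84 and 9.86. The median cilium gene stood at percentile 39.1 of all promoter peaks in replicate 1 and 47.7 in replicate 2, and 17 and 18 of the 37 lay above the median of all genes. The middle of the list ran from 5.74 to 14.1 in replicate 1 and from 6.90 to 15.4 in replicate 2 (quartiles), against 6.19 to 12.8 and 6.90 to 14.8 over all genes. Peaks were somewhat shorter at the cilium genes, with a median length of 1515 bp and 1730 bp against 1795 bp and 2120 bp.

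**Figure D2:**
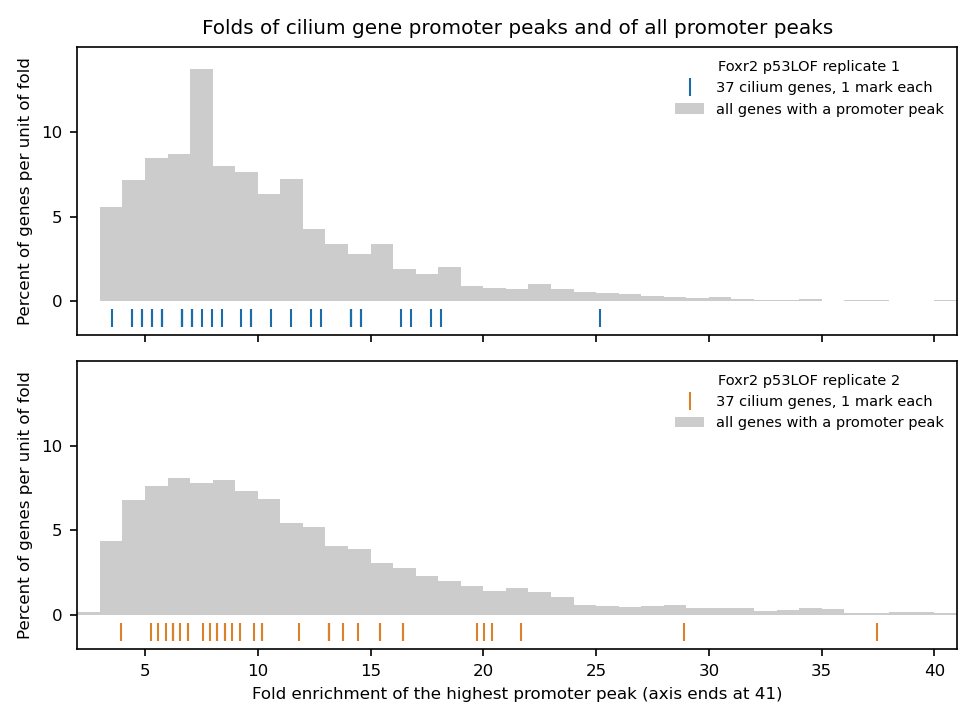
Distribution of the fold enrichment of the highest promoter peak over all genes with one (grey bars, percent of genes per unit of fold) in each Foxr2 p53LOF replicate, with 1 coloured mark for each of the 37 cilium genes under the axis. The marks spread over the body of the grey distribution, with medians of 7.95 and 9.86 against 8.84 and 9.86, and Ift80 stands alone at the upper end in both replicates.

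The 2 replicates ranked the genes alike, and replicate 2 gave the higher fold at 28 of 37 cilium genes, as it did at 71.8% of the 11242 genes with a peak in both. The rank correlation of the folds was 0.874 over the 37 genes and 0.876 over those 11242, which is a description across genes of 2 libraries. In every one of the 37 the peaks of both replicates overlapped. The summits rested on 7 to 56 fragments in replicate 1 (median 17) and 11 to 113 in replicate 2 (median 29), so that the 95% exact Poisson interval of a fold was wide and covers counting error only. For 36 of the 37 genes the intervals of both replicates overlapped. Ift140 was the exception, at 14.1 (9.75 to 19.9) in replicate 1 and 28.9 (23.2 to 35.6) in replicate 2.

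**Figure D3:**
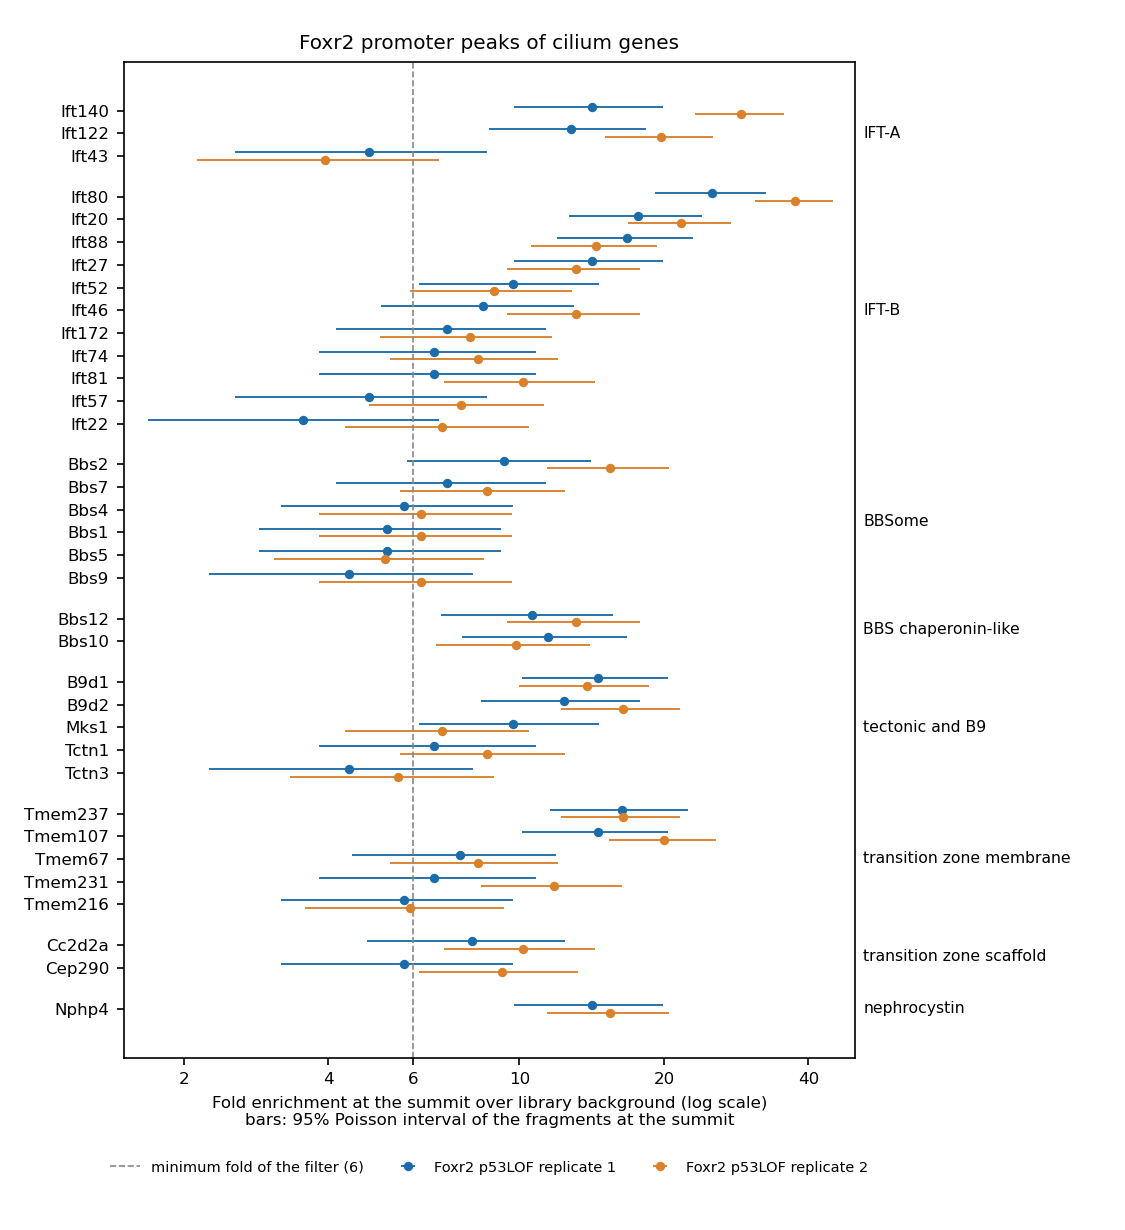
Fold enrichment at the summit of the highest promoter peak (log scale) of 35 of the 37 cilium genes in Foxr2 p53LOF replicate 1 (blue) and replicate 2 (orange), grouped by protein complex. Bars are 95% Poisson intervals of the fragments at the summit, and the dashed line is the minimum fold of 6. Ift80 is highest at 25.2 and 37.5, Ift43 and Ift22 hold the lowest values at 3.94 and 3.53, and 5 of the 6 BBSome genes have a replicate 1 fold of at most 7.07.

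The IFT-A group was split. Ift140, a core subunit needed for return transport, had folds of 14.1 and 28.9 in replicates 1 and 2, and Ift122 had 12.8 (8.66 to 18.3) and 19.7 (15.1 to 25.3). Ift43, a small peripheral subunit, had 4.86 (2.56 to 8.57) and 3.94 (2.13 to 6.79) and failed both the fold and the q minimum in each replicate. The intervals of Ift43 lay below those of both core subunits in each replicate. Sites were therefore kept at 2 of 3 IFT-A genes, and the site counts of this and the following groups stand against 39.3% of all genes.

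Of the 11 IFT-B genes 9 kept a promoter site (all genes 39.3%, or 48.8% and 69.1% at CpG ratios from 0.4 to 0.6 and from 0.6 to 0.8), with median folds of 8.39 and 10.2. Ift80 (chr3:68892499-69004570, minus strand) had the highest folds of all 37 genes, 25.2 (19.1 to 32.6) in replicate 1 and 37.5 (30.9 to 45) in replicate 2, at percentiles 96.9 and 98.5 of all promoter peaks. Its peaks were also long, at 4846 bp and 7114 bp. Ift20, the subunit also found at the Golgi, had 17.7 and 21.7, Ift88 had 16.8 and 14.5, and Ift27, a small GTPase of the train, had 14.1 and 13.1. These 4 genes were above a fold of 10 in both replicates. A middle group was formed by Ift46 at 8.39 and 13.1, Ift52 at 9.72 and 8.87, Ift172 at 7.07 and 7.88, and the tubulin-binding partners Ift74 at 6.63 and 8.21 and Ift81 at 6.63 and 10.2. Within this middle group all Poisson intervals of a replicate overlapped, so its order is not resolved. Ift22, another small GTPase, was lowest in replicate 1 with 3.53 (1.69 to 6.81) and had 6.90 (4.34 to 10.5) in replicate 2. Ift57 had 4.86 and 7.56. Both passed the filter in replicate 2 alone.

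Of the 6 BBSome genes taken by symbol, all but Bbs2 had folds below the medians of all genes in both replicates. The median of the 6 was 5.52 in replicate 1 and 6.24 in replicate 2, at median percentiles of 14.7 and 18.9, and 2 of 6 kept a site, a share near the 39.3% of all genes. Bbs2 was the highest with 9.28 (5.84 to 14.1) and 15.4 (11.4 to 20.5), followed by Bbs7 with 7.07 and 8.54. Bbs9 was the lowest in replicate 1 with 4.42 (2.26 to 7.99) and had 6.24 (3.83 to 9.67) in replicate 2. Bbs1, the subunit altered in many families with Bardet-Biedl syndrome, had 5.30 and 6.24, Bbs4 had 5.74 and 6.24, and Bbs5 had 5.30 and 5.26, the lowest of the group in replicate 2. The intervals of these 4 lower genes overlapped one another in each replicate. The peaks of both chaperonin-like genes, whose products assemble the BBSome, were higher: Bbs10 had 11.5 and 9.86 and Bbs12 had 10.6 and 13.1, and both kept a site. Whether the BBSome genes differ from the other cilium genes was not tested.

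Among the transition zone genes of the tectonic and B9 group 4 of 5 kept a site (all genes 39.3%). B9d1 had 14.6 and 13.8, B9d2 had 12.4 and 16.4, and Mks1, the third B9-domain gene, had 9.72 and 6.90. Tctn1, a tectonic gene of Hedgehog signalling, had 6.63 and 8.54. Tctn3 was lowest with 4.42 (2.26 to 7.99) and 5.59 (3.33 to 8.86) and failed the fold minimum in both replicates. All 3 B9-domain genes stood above both tectonic genes in replicate 1, whereas in replicate 2 Mks1 lay below Tctn1, and the intervals of Mks1 and Tctn1 overlapped in each replicate.

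Of the 5 transition zone membrane genes 4 kept a site (all genes 39.3%). Tmem237 had nearly equal folds of 16.3 (11.6 to 22.5) and 16.4 (12.2 to 21.6), and Tmem107 had 14.6 and 20.04 with the longest peaks of the 37, 5587 bp and 7282 bp. Tmem67, which encodes the receptor-like protein meckelin, had 7.51 and 8.21, and Tmem231 had 6.63 and 11.8. Tmem216 had 5.74 (3.18 to 9.70) and 5.91 (3.58 to 9.27), just under the minimum fold in each replicate. Of the scaffold genes that tie the zone together, Cc2d2a kept a site with 7.95 and 10.2, and Cep290 did not, with 5.74 (3.18 to 9.70) and 9.20 (6.17 to 13.2).

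Among the nephrocystin genes, Nphp4, which encodes a scaffold protein of the transition zone, kept a site with 14.1 (9.75 to 19.9) in replicate 1 and 15.4 (11.4 to 20.5) in replicate 2.

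The 10 genes without a site were Bbs1, Bbs4, Bbs5, Bbs9, Cep290, Ift22, Ift43, Ift57, Tctn3 and Tmem216. All 10 had a fold of 6 or less in replicate 1, and 7 of them also had a −log10 q of 6 or less there. Their replicate 1 summits held 7 to 12 fragments, and a fold above 6 needs 13 in that library and 18 in replicate 2. In replicate 2 only 4 of them (Bbs5, Ift43, Tctn3 and Tmem216) failed. None of the 37 lost its peak to a control peak or to the length limit. Overlapping peaks of both replicates were present at all 10 before the filter, and without a minimum fold the number of genes with a site was 30 instead of 27. Nearest to the minimum were Bbs4, Cep290 and Tmem216 at 5.74 in replicate 1 on one side and Ift74, Ift81, Tctn1 and Tmem231 at 6.63 on the other, a difference of 12 against 14 fragments.

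Summits lay close to the start but rarely on it. The median distance to the nearest protein-coding start of the gene was 215 bp in replicate 1 and 151 bp in replicate 2, against 215 bp and 213 bp over all genes with a promoter peak. The largest distances were 702 bp (Cep290, upstream) in replicate 1 and 599 bp (Bbs2, inside the gene) in replicate 2. By the annotation, 14 replicate 1 summits lay upstream of the gene, 8 in a UTR exon, 5 in a coding exon and 10 in an intron, and the counts in replicate 2 were 10, 12, 6 and 9. The replicates placed the summit within 100 bp of each other at 21 of 37 genes, with a median gap of 64 bp and a largest gap of 546 bp (Tctn1). Bbs2, Ift22, Tmem67 and Tmem237 were among the genes with almost the same position in both.

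**Figure D4:**
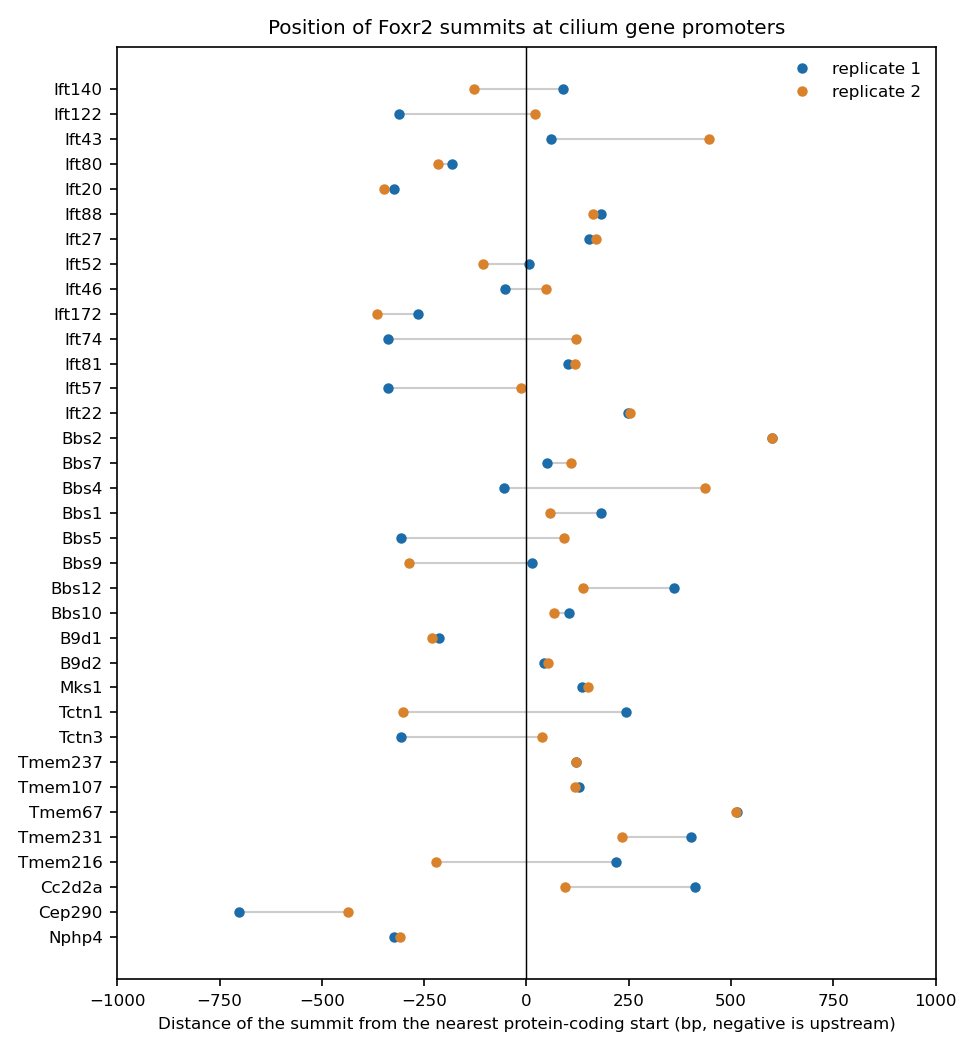
Position of the summit of the highest promoter peak relative to the nearest protein-coding start of 35 of the 37 cilium genes in Foxr2 p53LOF replicate 1 (blue) and replicate 2 (orange), joined by a line. Negative distances are upstream. Points fall on both sides of the start within 702 bp, and Tctn1 and Ift74 are among the genes with their replicate summits on opposite sides of the start.

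A share of these peaks cannot be given to the cilium gene alone. Another protein-coding start lay within 1 kb of a start of 10 of the 37 genes (27%), which holds for 12.8% of all genes. In 8 pairs the genes ran away from each other on opposite strands, with the starts 29 bp (Ift20 and Tnfaip1), 99 bp (Ift122 and Mbd4), 108 bp (Bbs12 and the centrin gene Cetn4), 164 bp (Tctn3 and Entpd1), 168 bp (Ift80 and the condensin subunit gene Smc4), 208 bp (Cep290 and Tmtc3), 271 bp (Nphp4 and the potassium channel subunit gene Kcnab2) and 297 bp (Ift140 and Cramp1l) apart. Tmem67 and Rbm12b2 overlapped on opposite strands with starts 579 bp apart. The summit was nearer to the other gene's start in 8 of the 9 opposite-strand pairs in replicate 1 and in 6 of 9 in replicate 2. At Ift80 it lay 14 bp and 48 bp from the start of Smc4 but 182 bp and 216 bp from that of Ift80. At Nphp4 it lay 54 bp and 37 bp from the start of Kcnab2, and at Tmem67 65 bp and 66 bp from that of Rbm12b2. Ift140 was the pair whose summit was nearer the cilium gene in both replicates, at 90 bp and 128 bp.

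The 10 genes with a neighbouring start had median folds of 13.5 and 17.6, and 8 of them kept a site, while the 27 others had medians of 7.07 and 8.54 and 19 kept one. Over all genes with such a neighbour 75.9% had a site. Among genes with no other start within 1 kb, all 27 cilium genes had a promoter peak in both replicates against 46.5% of all such genes, and 19 of 27 kept a site against 34%. The high count of peaks was thus also seen at genes without a shared promoter.

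Folds also differed between chromosomes over all genes, and this was not tested as a source of the differences among cilium genes. The median promoter fold of all genes was 11.05 and 12.8 on chromosome 11, where B9d1, Tmem107, Ift20 and Mks1 lie with medians of 14.6 and 16.9. On chromosome 19, where Bbs1, Tmem216 and Tctn3 lie, it was 8.39 and 9.53, and the 3 genes had medians of 5.30 and 5.91. Ranked against genes of their own chromosome only, a comparison added after the data were seen, the cilium genes had median percentiles of 41.4 and 53.7.

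Consensus sequences of other promoter factors were counted in the same window. The RFX half-site (GTTGCC, either strand, which most of the printed X-boxes contain) was found in the promoter window of 18 of 37 cilium genes (48.6%) and of 12% of all genes. The NFY motif CCAAT was found in 19 (51.4%, all genes 38.6%), the SP motif GGGCGGG in 12 (32.4%, all genes 33.6%), the ETS motif CCGGAAG in 5 (13.5%, all genes 11.2%), the CRE TGACGTCA in 2 (5.41%, all genes 2.49%) and the YY1 motif AAGATGGC in 1 (2.70%, all genes 3.05%). The forkhead core GTAAACA, the NRF1 motif GCGCATGC and the E-box CACGTG were in 0 of 37, against 2.92%, 3.75% and 7.76% of all genes. These are matches of letters within 300 bases, not measured binding sites.

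Within 100 bases of the replicate 1 summit, 0 of 37 cilium genes held a whole X-box and 2 held the half-site (5.41%), against 0.506% and 7.73% of the 11661 genes with a promoter peak in that replicate. The centres of the X-boxes printed above lay from 97 bp (B9d2) to 1430 bp (Tmem67) from the replicate 1 summit. In replicate 2 the X-boxes of Ift57 were 78 bp and 51 bp and that of Bbs1 56 bp from the summit. One gene, Tmem67, held an ETS motif within 100 bases of its replicate 1 summit, against 5.39% of all genes with a peak, and NFY motifs were there at 9 genes (24.3%, all genes 16%).

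**Figure D5:**
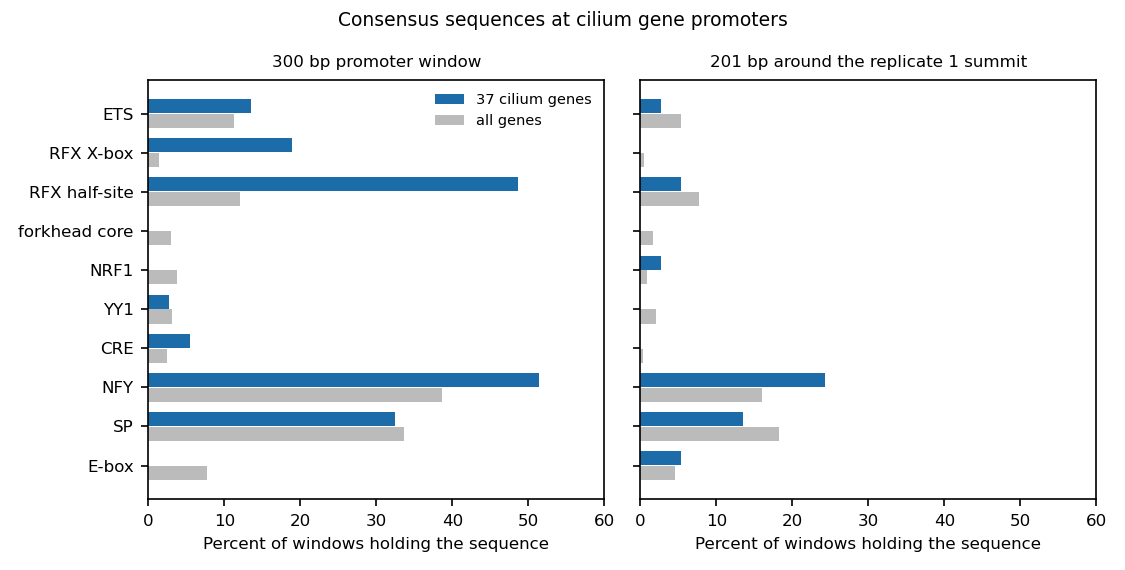
Percent of the 37 cilium genes (blue) and of all genes (grey) whose window holds each of 10 consensus sequences on either strand. The left panel is the 300 bp promoter window, where the X-box (18.9% against 1.42%) and its half-site (48.6% against 12%) differ most, and the right panel is the window around the replicate 1 summit, over genes with a promoter peak, where 0 cilium genes hold an X-box.

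Among the cilium genes, those with an X-box had lower median folds than those without one, a difference that was not tested. The 7 with one had median folds of 6.63 and 8.21 and 4 kept a site, against 8.84 and 10.2 and 23 of 30 for those without. Over all genes, 62.8% of the 309 with an X-box had a promoter peak in both replicates and 46.6% a site, with median folds of 7.95 and 9.86. The half-site split the cilium genes less, with medians of 8.39 and 11.01 (14 of 18 with a site) against 7.95 and 9.20 (13 of 19), and over all 2626 genes with a half-site 53.9% had a promoter peak in both replicates and 42% a site. The 5 cilium genes with an ETS motif (Bbs4, Ift20, Ift88, Tmem216 and Tmem231) had medians of 6.63 and 11.8, and 3 kept a site, against 24 of the other 32. Over all genes 84.9% of the 2446 with an ETS motif had a promoter peak in both replicates and 70.1% had a site.

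Other cilium genes, taken from lists of known components, were counted in the same way. Of 79 such genes 64 had a promoter peak in both Foxr2 p53LOF replicates (all genes 51.5%), 45 had a reproducible site (all genes 39.3%) and 0 had a peak in a control (all genes 0.133%). Without 19 genes that serve motile cilia, 53 of 60 had a peak in both and 38 a site. An X-box was found in 11 of the 79 (13.9%, all genes 1.42%). The counts of the single lists below are to be read against the same shares of all genes.

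The remaining IFT particle genes had a peak in both replicates at 9 of 10, the exception being Ttc30a2, and 5 kept a site. Highest was Ttc21b, an IFT-A gene, with 12.4 and 15.4. All 9 motor genes had a peak in both and 5 kept a site, with the kinesin gene Kif3a highest in replicate 1 at 13.7 (10.2 in replicate 2) and the dynein chain gene Wdr34 highest in replicate 2 at 16.1 (11.5 in replicate 1). The partner of Kif3a, Kif3b, had 4.42 and 5.59. All 5 further BBS genes had a peak in both and 4 kept a site. The small BBSome subunit gene Bbip1 was highest with 19.9 and 27.9, and Ttc8, the other remaining BBSome subunit, had 6.19 and 5.91 and no site.

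Of 12 further transition zone genes 11 had a peak in both replicates and 8 kept a site. Ahi1, the Joubert gene jouberin, had 23.9 and 25.3, and Rpgrip1 had a peak of 3.61 in replicate 2 alone. Among 8 small GTPase and ciliary membrane genes 6 had a peak in both and 4 a site, with Pde6d, a carrier of lipid-modified proteins, highest at 19.4 and 24.6. The receptor gene Gpr161 and the adenylyl cyclase gene Adcy3, both ciliary membrane proteins, had none in either replicate. All 8 basal body appendage genes had a peak in both and 7 kept a site, led by Fbf1 with 12.8 and 18.7. The exception, Ofd1 on chromosome X, had 3.98 and 4.27.

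The ciliogenic transcription factor genes had peaks in both replicates at 5 of 8, and all 5 kept a site. Rfx1 was highest with 13.7 and 20.4, Rfx3 had 13.3 and 15.1, Rfx4 10.2 and 12.5, Rfx7 12.8 and 17.7, and Foxj1, the master factor of motile cilia, 9.28 and 12.5. Rfx2 had a peak of 7.56 in replicate 2 alone, Mcidas one of 3.98 in replicate 1 alone, and Gmnc had none. The genes of motile cilia, which encode the machinery of ciliary beating, had a peak in both at 11 of 19, against 51.5% of all genes, and 7 kept a site, against 39.3%, so these counts were near those of all genes. Dnaic2 with 17.2 and 20.4 and Ccdc40 with 17.2 and 22.3 had the highest folds. The dynein heavy chain genes Dnah5, Dnah9 and Dnah11 had none, nor did Rsph4a, Hydin, Dnaaf3 and Lrrc6, and Rsph1 had one of 8.54 in replicate 2 alone.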

How the data were processed

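Foxr2 binding was measured by CUT&RUN in 2 Foxr2 p53LOF and 2 V5 control libraries. Per the labels and the methods, the authors trimmed reads with Trimmomatic (0.39), aligned them to mm10 with BWA (0.7.17), removed duplicates with Picard (2.26.6) and called peaks library by library with MACS2 (2.2.7.1). The deposited signalValue is a ratio, a fold that the authors made with MACS2 from the summit fragments and the library's background, with 1 added to each. MACS2 also gave the deposited −log10 of p and q for each peak within its library, and a deposited score that restates the q value. Read totals were not used here. The fragments at a summit were recovered from the deposited folds and p-values, which gave backgrounds of 1.26 and 2.04 (Foxr2 p53LOF) and 1.69 and 0.6425 (V5 control), and with them exact 95% Poisson intervals that cover counting error only.

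Promoter peaks overlap the stretch within 1 kb of a protein-coding start in GENCODE M21 (GRCm38). The highest fold was taken per gene and replicate. The filter of the study was applied without its open chromatin step, which gave 11947 reproducible sites. Each overlapping pair of filtered peaks made 1 site here, and the paper reports fewer sites reproducible across its replicates. Sequences came from the RefSeq GRCm38.p6 genome, from 250 before to 50 after 1 principal start a gene. Each class was described by its highest and lowest gene by the lower fold, every gene without a site, and every gene with a neighbouring start, and the others were given by value. Alternatives changed the window, the start, the filter and the libraries. Members and lists were chosen with earlier results of these data known. Tctn2 is not typed as protein-coding in this annotation and was not used. Some results for single genes are not reported here, though these genes are in the counts. Background recovery, site and promoter calls, removal of control overlaps and the motif search were tested on simulated data. The other steps were not tested in this way. Python 3.11.15, pandas 2.3.3 and scipy 1.17.1 were used.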

Additional observations from a re-analysis of the deposited data

How the results depend on the processing

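The count of 37 of 37 genes with a promoter peak in each Foxr2 p53LOF replicate, and of 0 in the V5 controls, was the same with windows of 500 bp and 2 kb, with starts of all transcripts and with the summit required inside the window. The count of genes with a reproducible site was 27 when either V5 control replicate was left out (all genes 39.4%). When 1 Foxr2 p53LOF replicate was left out, no overlap could be required, and genes with a filtered promoter peak in the other were counted. These were 33 without replicate 1 (all genes 43.7%) and 27 without replicate 2 (all genes 42%). The count of genes with a reproducible site was 30 with no minimum fold (all genes 43.1%), 20 at a minimum −log10 q of 10 (all genes 33.6%) and 13 at a minimum fold of 10. With filtered peaks only, which drops the lower genes from the list, the median fold in replicate 1 was 10.6 and the median percentiles were 52.5 and 38.8 in replicates 1 and 2. Around the replicate 1 summit, a shorter window at another place, 1 gene held an ETS motif, 0 an X-box, 2 the half-site, 1 an NRF1 motif, 0 a YY1 motif, 0 a CRE, 9 an NFY motif, 5 an SP motif and 2 an E-box. With 500 bases on either side of the start, the median GC content was 55.9% and the median CpG ratio 0.688. For single genes, all 138 lower folds under other windows, the nearest summit and filtered peaks equalled the main value. This was largely fixed beforehand, because 36 of the 37 genes had 1 promoter peak in both replicates. Genes that lost a peak to the filter have no value in the filtered setting. No paired analysis was possible because the peak lists give no value in the control libraries at these genes and no test was made.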

Other observations

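Besides the promoter sites, 2 of the 37 genes overlapped a reproducible site more than 1 kb from their protein-coding starts. At Ift46 this site (chr9:44766702-44768747) had folds of 13.3 and 8.87. It spans the annotated 5′ end of the gene at 44767908, which is not a protein-coding start, and contains the start of Arcn1, a neighbouring coat protein gene. The site in Tmem231 (chr8:111911826-111914273) had folds of 11.5 and 14.8, in both replicates above those of the Tmem231 promoter (6.63 and 11.8). It lies over the end of the gene and contains no protein-coding start. The centre of this site is 2602 bp from the nearest one, that of Chst5.

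Tmem216 and Tmem138, transition zone genes that lie side by side on chromosome 19 on the same strand with 14239 bp between them, differed in their promoter peaks. Tmem138 had folds of 12.4 and 15.1 and Tmem216 had 5.74 and 5.91. This pair was singled out after its values were seen, and the difference was not tested.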
